A study of Mus musculus with 18 samples.

Results

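The transcripts described here were detected in young footpad skin and lay below the detection call of the array in older animals. They were 149 of the 42006 probes for transcripts on the array. Each was well above background in the skin channel on at least 5 of the 6 arrays of postnatal day 10 (P10) and on 0 of the 6 arrays of postnatal day 31 (P31), with both genotypes counted together. "Well above background" is a call that the scanner software makes for each spot, and a probe with several spots counted as detected when more than 0.5 of them carried the call. P10 and P31 chose the members, so the fall between these ages describes the choice and was not tested. The arrays of postnatal day 14 (P14), the reference channel and the probe sequences were not used by the choice. Genotype did not enter it either, but the P10 and P31 arrays of both genotypes did. Requiring the call on at least 5 of the 6 P10 arrays limits large genotype differences at P10.

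Hairless skin of the fore footpad came from FoxA1 knockout mice and from wild-type littermates, all of the C57BL/6 strain and given as mixed sex without the sex of each animal. Each genotype was sampled at P10, P14 and P31 with 3 arrays, taken here as 1 per animal, which gave 6 groups and 18 arrays. The design text calls the animals embryos although the ages are postnatal. The labels state a gene knockout and give neither its extent nor a driver for it. On every array the Cy3-labelled skin RNA was hybridized against the same Cy5-labelled pool of RNA from mouse cell lines and embryonic stem cells. The dyes were never swapped. Neither the scanner files nor the tables at hand pair a probe with a gene, so the members are given by probe identifier. For the same reason Foxa1 itself, gene lists and markers of skin or of other tissue could not be looked up. The footpad is dissected tissue, in which fewer cells of a type and less RNA per cell cannot be told apart.

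The mouse footpad is the skin that carries eccrine sweat glands. After birth the gland ducts and coils grow and begin to secrete, while the epidermis and dermis above and around them mature. FoxA1 is a forkhead transcription factor that binds DNA in closed chromatin and is found in the secretory part of the sweat gland.

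The 6 probes below open the account because their mean levels fell most from P10 to P31, among all members or among members grouped by their detection at P14. Of these, Z00064853-1 varied widely between arrays of the same age, as described further on. Each line gives the last 30 of the 60 bases of the probe in the orientation of the scanner files, and capitals mark AATAAA, the usual polyadenylation signal of messenger RNA.
Z00018229-1: gattccaggcgttttaggttgaagaatcct
Z00039659-1: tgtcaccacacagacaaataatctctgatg
Z00064853-1: ttggaaatctcatttttagttAATAAAaga
Z00022471-1: ttattcaaaactggatattatacagaactg
Z00075665-1: atgccacactggtatggctaaAATAAAtgc
Z00021599-1: gactgaattagaaatggaaatggctagagc
Of the 149 members, 8 held AATAAA on the given strand (5.37%, against 6.93% of all probes) and 3 held its reverse complement TTTATT (2.01%, against 3.36%). No member held both. The median GC content was 40% in the members (quartiles 35% and 45%), 43.3% over all probes and 45% over the 23247 probes that were detected on at least 5 P10 arrays and on at least 1 P31 array. A reading frame without a stop codon ran through the given strand of 115 members (77.2%, against 83.4% of all probes). No member shared a stretch of 20 bases with another member, and each was a single spot, so no pair of members was shown by sequence to read the same stretch of a transcript.

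On the P10 arrays, 109 to 147 of the 149 members were well above background. On the P14 arrays it was 24 to 67 members. The P31 arrays had 0, as the choice required. The share of all probes detected did not follow age in this way: it was 55.4% to 62.7% at P10, 53.3% to 58.3% at P14 and 55.6% to 63.7% at P31. Among the P31 arrays, knockout replicates 1 and 2 had the highest shares, 63.7% and 62.4%. They also had the lowest median spot brightness of all probes at that age, 107 and 110. The part of array sensitivity in the loss of the call was not tested. The lowest skin level called well above background, on the log2 scale after normalization between arrays and channels, was 6.37 to 6.67 at P10, 6.43 to 6.73 at P14 and 6.19 to 6.41 at P31. The limits of single arrays overlapped between P10 and P31.

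At P10 the members were somewhat dimmer than the median probe of the array. Their median spot brightness was 130 to 180 at P10, 92.6 to 111 at P14 and 73.6 to 98.8 at P31, against a median local background of 44 to 53. The median of all probes was 146 to 189 at P10, 114 to 140 at P14 and 107 to 146 at P31, and it was above that of the members on each of the 18 arrays. Their median normalized skin level on the log2 scale was 6.87 to 7.07 at P10, 6.57 to 6.65 at P14 and 6.27 to 6.44 at P31. The P14 arrays lay between those of the other ages, without overlap. The reference channel of the same spots stayed level, with a median of 6.41 to 6.59 at P10 and 6.44 to 6.50 at P31. The median change of a member's reference level from P10 to P31 was 0.0060 on the log2 scale, and over all probes it was -0.0013.

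Loss of the call was not absence of signal. A second call of the scanner software, positive and significant against the local background, was kept by 82 to 123 of the members on each P31 array (55.0% to 82.6%). Over all probes the share with that call was 71.9% to 80.6% on these arrays. With that call 46 members were positive on all 6 P31 arrays and 6 were positive on 0. At P10 the same call held on all 6 arrays for 146 members. Only a bound on the fall could therefore be given. The mean skin level over the P10 arrays was set against the mean over the P31 arrays of the higher of the array's lowest well-above-background level and the probe's own level.

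By that bound the median member was at least 1.46-fold higher at P10 than at P31 (quartiles 1.31 and 1.84). The bound was over 1.5 for 67 members, over 2 for 30 and over 4 for 10, and the highest was 17.3. The members that all 6 P10 arrays detected numbered 76 and had a median bound of 1.79, and the 73 on 5 of 6 arrays had 1.32. Just outside the choice, 88 probes on 4 P10 arrays and 0 P31 arrays had a median of 1.23, and 136 probes on at least 5 P10 arrays and 1 P31 array had 1.32. Most large falls in this skin were not among the members: of 23394 tested probes on at least 5 P10 arrays, 850 fell by more than 1 in log2 ratio over the reference from P10 to P31. Of these, 40 were members and 745 were still detected on at least 5 P31 arrays.

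Z00018229-1 had the largest bound, at least 17.3-fold. Its normalized skin level on the log2 scale was 10.36, 9.93 and 10.06 on the wild-type P10 arrays and 11.39, 10.76 and 10.79 on the knockout P10 arrays. At P14 it was 8.59, 8.51 and 8.36 in wild-type skin and 8.56, 8.38 and 8.60 in knockout skin. At P31 it was 6.59, 6.22 and 6.33 in wild-type skin and 6.55, 6.30 and 6.55 in knockout skin. Every P14 array lay below every P10 array and above every P31 array, and the genotypes overlapped at P14 and P31. Its reference level was 7.26 to 7.70 over the 18 arrays.

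Z00039659-1, with a bound of 5.35-fold, also descended in steps. Its skin levels were 8.67, 8.54 and 8.76 in wild-type skin and 9.02, 8.72 and 9.04 in knockout skin at P10. At P14 they were 6.80, 7.11 and 7.05 in wild-type skin and 7.31, 6.91 and 6.88 in knockout skin. At P31 they were 6.22, 6.21 and 6.52 in wild-type skin and 6.28, 6.09 and 6.30 in knockout skin. The ages did not overlap, and all 6 P14 arrays still detected the probe.

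Other members were near the floor by P14. Z00075665-1 had a bound of 3.75-fold and was detected on 0 P14 arrays. Its skin levels at P10 were 7.78, 8.09 and 7.37 in wild-type skin and 8.93, 8.92 and 8.35 in knockout skin, with every knockout array above every wild-type array. At P14 they lay between 5.98 and 6.45, within the reach of the P31 levels, 6.03 to 6.49. Z00021599-1, with a bound of 2.73-fold and also 0 P14 arrays, had P10 levels of 6.87, 8.42 and 7.89 in wild-type skin and 8.55, 8.63 and 7.34 in knockout skin, so the genotypes overlapped. Its P14 levels were 6.29 to 6.67 and its P31 levels 6.16 to 6.82.

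Z00022471-1, with a bound of 5.59-fold, was the member with the largest bound among those detected on some of the P14 arrays apart from one that differed between animals, described further on. Its skin levels at P10 were 7.86, 8.76 and 8.24 in wild-type skin and 9.73, 9.78 and 8.48 in knockout skin. At P14 they were 6.71, 6.83 and 6.29 in wild-type skin and 6.31, 6.71 and 6.45 in knockout skin, and 1 array of each genotype detected the probe. At P31 they were 6.01 to 6.42.

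P14 was not used to choose the members, and they differed in their detection there. On 0 of the 6 P14 arrays were 54 members (36.2%). Between 1 and 4 of the arrays detected 75 members (50.3%): 28 were on 1 array, 23 on 2, 11 on 3 and 13 on 4. On 5 or 6 arrays were 20 members (13.4%), of which 12 were on all 6. The median bound from P10 to P31 was 1.36-fold in the first of these classes, 1.46-fold in the second and 2.17-fold in the third. Of the 20 members detected on 5 or 6 P14 arrays, 19 were on all 6 P10 arrays, against 13 of the 54 on 0 P14 arrays. The members detected on 5 or 6 P14 arrays did not have the smallest measured falls since P10. Their median change in log2 ratio from P10 to P14 was -0.54 in the wild type and -0.67 in the knockout. It was -0.33 and -0.47 for the members on 0 P14 arrays. For members below the call at P14 the measured fall was limited by background, so the classes cannot be ranked by their true fall.

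The changes between neighbouring ages share arrays with the choice and are given as a description. From P10 to P14 the median member changed by -0.34 in log2 ratio in the wild type (all tested probes 0.01) and by -0.43 in the knockout (all 0.0072). Of the 149 members, 32 were called lower at P14 in the wild type, by limma with an adjusted p under 0.05 and a fold over 1.5, where 4.28% of all 27115 tested probes were. In the knockout it was 44 members, against 3.06% of all tested probes. From P14 to P31 the median member changed by -0.24 in the wild type and -0.26 in the knockout, with 12 members called lower in each (4.37% and 3.49% of all tested probes).

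The P10 arrays lay on slides of their own, which leaves the slide and the age of the first step inseparable: they cannot be told apart. P14 and P31 met on 1 slide, which held wild-type replicates 2 and 3 of P14 and knockout replicates 1 and 2 of P31. On that slide 138 of the 149 members were lower in the P31 knockout than in the P14 wild type, with a median of -0.24, whereas 60.2% of all tested probes were higher and their median was 0.07. Genotype and age changed together in this comparison. The choice also required every member to be below the call on these P31 arrays, so lower levels there were largely set in advance.

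The choice was repeated in 1 genotype and looked up in the other, whose arrays it then had not used. In the wild type, 201 probes were on 3 of 3 P10 arrays and 0 of 3 P31 arrays. In the knockout, 173 of these were on 3 of 3 P10 arrays and 84 were on 0 of 3 P31 arrays. Both held for 76 probes (37.8%), and among all 22479 probes on the 3 wild-type P10 arrays the knockout showed this pattern for 0.507%. In the other direction, 343 probes were chosen in the knockout, of which 114 were on 3 of 3 wild-type P10 arrays, 234 were on 0 of 3 wild-type P31 arrays and 76 showed both (22.2%, against 0.73% of the 23699 probes on the 3 knockout P10 arrays). The shares over all probes cover every brightness, and probes as dim as the chosen ones were not compared. The genotypes of one age shared slides in part, so these are not separate hybridization runs.

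Knockout and wild type were then compared at each age, on the log2 ratio of skin over reference in a limma fit over all 18 arrays. The question is whether loss of FoxA1 changes how much of these transcripts the skin holds. No member passed at P10, where 0.0295% of the tested probes did, and the lowest adjusted p of a member was 0.204. This fit left the arrays unpaired. In a limma fit with the replicate number within each age as a block, 0 members passed at P10 and the lowest adjusted p was 0.095. No member passed at P14 either (0.0258% of the tested probes, lowest adjusted p 0.524). For the mean of P10 and P14 the count was also 0 (0.059%, lowest adjusted p 0.330), and 22 members had an unadjusted p under 0.05 (10.3% of all tested probes). The difference between the genotypes' changes from P10 to P14 passed for 0 members (0.00369%, lowest adjusted p 1.00). Unadjusted, 12 members had a p under 0.05 for it (2.54% of all tested probes), all with the knockout's change below that of the wild type. The P10 arrays chose the members and enter both this difference and the mean, so neither is independent of the choice. The median difference between changes was -0.11 over the members. With slide as a fixed block it was 0.0070, with 51.0% of members and 51.9% of all tested probes above 0. At P31, where every member was below the call, 0 passed (0.0148%, lowest adjusted p 0.521). Unadjusted, 7 members had a p under 0.05 there (7.8% of all tested probes), and no fold is given for that age. These counts do not show that the genotypes are alike, since 3 arrays a group limit what can be called.

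At P10 the members lay on the knockout side. The difference, knockout minus wild type, was above 0 for 119 of 149 members (50.8% of all tested probes) and had a median of 0.14 in log2 ratio (quartiles 0.03 and 0.25; median of all tested probes 0.0028). An unadjusted p under 0.05 was reached by 23 members, all higher in the knockout, where 3.34% of all tested probes reached it in either direction. The 3 knockout arrays all lay above the 3 wild-type arrays for 16 members (10.7%, against 6.51% of all tested probes) and all below for 2 members (7.78% of all tested probes). The P10 arrays of both genotypes chose the members, so these differences are not independent of the choice. The detection calls at P10 were the choice itself and are given only as a description. The knockout arrays held 146, 147 and 147 members, with 62.7%, 59.7% and 59.1% of all probes, and the wild-type arrays held 132, 140 and 109, with 59.6%, 58.5% and 55.4% of all probes. Of the 73 members that missed 1 P10 array, 66 missed a wild-type array, and 40 of them missed wild-type replicate 3, which had the lowest share of all probes at P10.

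The slides moved with this difference. Knockout replicates 1 and 2 of P10 had a slide to themselves, and knockout replicate 3 shared a slide with the 3 wild-type arrays. Within the shared slide the median knockout minus wild-type difference was 0.0053, with 78 members above 0 and 71 below (46.0% of all tested probes above 0). Between slides, knockout replicates 1 and 2 exceeded the wild type by a median of 0.18 (123 members and 54.9% of all tested probes above 0). They exceeded knockout replicate 3 by 0.17 (114 members and 58.8% of all tested probes above 0). The latter is a difference between arrays of one genotype and was about as large. Slide and genotype cannot be told apart for those 2 arrays.

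At P14 the members were centred near 0. The median difference was 0.019, with 83 members above 0 and 66 below (49.7% of all tested probes above 0), and 3 members reached an unadjusted p under 0.05, where 9.42% of all tested probes did. All 3 knockout arrays lay above the wild type for 9 members (11.7% of all tested probes) and below for 5 (10.5%). On the slide that held all 3 knockout arrays and wild-type replicate 1 the median was 0.0085, with 77 members above 0 (48.6% of all tested probes). By detection, 46 members were on more knockout than wild-type P14 arrays, 15 on fewer and 88 on equal numbers (30.9%, 10.1% and 59.1%). Over all probes of the array the same shares were 8.27%, 4.32% and 87.4%. These cover probes of every brightness, and probes as dim as the members were not compared. All 3 knockout arrays detected 24 members and all 3 wild-type arrays detected 13, or 16.1% and 8.72%, where the shares of all probes were 53.2% and 50.4%. The shares of all probes detected were 56.4%, 58.3% and 56.0% on the knockout arrays and 53.3%, 53.9% and 57.5% on the wild-type arrays. Wild-type replicate 1, with 24 members, had both the fewest members and the lowest share of all probes at P14, and its part in the counts was not tested.

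Some single members kept part of their difference within the shared slide, where knockout replicate 3 was the only knockout array. A difference of 0.4 to 0.5 within that slide was found for 4 of 149 members and for 532 of 27112 tested probes. Z00018229-1 had log2 ratios over the reference of 2.76, 2.61 and 2.67 in wild-type skin and 3.85, 3.43 and 3.09 in knockout skin at P10. The groups did not overlap, and the array on the shared slide, knockout replicate 3, was the lowest of its group and above every wild-type array. The difference was 0.78 (SE 0.17) and did not pass (limma adjusted p = 0.308), and with slide as a fixed block it was 0.41 (adjusted p = 0.998). At P14 the difference was 0.08 (SE 0.17, adjusted p = 0.865).

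Z00075665-1 and Z00029506-1 had the lowest adjusted p at P10, and the latter is named here after its values were seen. For Z00075665-1 the P10 log2 ratios were 1.63, 2.14 and 1.45 in wild-type skin and 2.94, 3.19 and 2.18 in knockout skin, a difference of 1.03 (SE 0.21, limma adjusted p = 0.204). For Z00029506-1 they were -0.54, -0.07 and 0.13 in wild-type skin and 1.28, 0.89 and 0.30 in knockout skin, a difference of 0.98 (SE 0.20, adjusted p = 0.204). Knockout replicate 3 was the lowest knockout array for both and stood just above the highest wild-type array. Without it the differences were 1.33 (adjusted p = 0.00307) and 1.24 (adjusted p = 0.00622), both past the limits, with only the knockout arrays of the separate slide left. With slide as a fixed block, which compares knockout replicate 3 with the wild-type arrays of its slide, they were 0.44 and 0.46 (adjusted p = 0.998 for both). Z00022471-1 showed the same split, with ratios of 2.07, 2.76 and 2.33 in wild-type skin and 4.15, 4.19 and 2.56 in knockout skin. Its difference of 1.24 (SE 0.30) did not pass (adjusted p = 0.570), and knockout replicate 3 lay within the wild-type values.

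The reference pool held many of the transcripts too. In the reference channel 60 members were well above background on all 18 arrays (40.3%, against 55.4% of all probes), 42 on 0 arrays (28.2%, against 21.3%) and 47 on some (31.5%, against 23.3%). For the 42, the ratio over the reference rests on a reference signal below the call on every array.

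A set of 3 members did not follow age alone. They had the largest spread among the 6 P10 arrays, with SDs of 2.57, 2.03 and 1.52 in skin level against a median of 0.18 over the members. The sequences of the other two, again the last 30 of 60 bases, are shown because they share the pattern of Z00064853-1 without sharing its sequence; both were chosen after their values were seen.
Z00025402-1: cttgatagttaacaactgttgctgtgcacc
Z00063386-1: cttacgcattaaaatttattattagtaaat
Z00064853-1 had the second-largest bound of all members, 8.33-fold. Its skin levels at P10 were 11.31, 12.19 and 8.51 in wild-type skin and 5.90, 12.35 and 8.48 in knockout skin. At P14 they were 11.57, 11.79 and 7.02 in wild-type skin and 6.65, 12.25 and 11.97 in knockout skin. At P31 all 6 lay between 6.42 and 7.15. At P10 the wild type held 2 arrays at the top and 1 in between, and the knockout held 1 at the top, 1 in between and 1 at the floor. At P14 each genotype had 2 arrays at the top and 1 near the floor, and at P31 none was at the top.

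Z00025402-1 and Z00063386-1 were highest on the same 7 arrays as Z00064853-1. These were wild-type replicates 1 and 2 and knockout replicate 2 at P10, and wild-type replicates 1 and 2 and knockout replicates 2 and 3 at P14. On them Z00025402-1 had levels of 10.12 to 10.89 and Z00063386-1 of 9.10 to 10.23, and the next array was at 7.94 and 6.84. The reference level of the 3 probes was high and steady, between 11.36 and 11.72, 10.65 and 11.08, and 9.46 and 10.01. At P31 the choice required all 6 arrays to be below the call, and at P10 it allowed 1 array to be. The labels give sex as mixed and no other difference between animals of one group. For these 3 probes, age and a difference in which animals were sampled cannot be told apart in the fall from P10 to P31. With these 3 set aside, the median genotype difference of the other 146 members at P10 was 0.14, with 119 above 0 and 0 called, which repeats the values of the whole set.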

How the data were processed

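Fore footpad RNA was measured on 18 two-colour Agilent arrays on 5 slides. The deposited scanner files hold brightness, background and processed signals as intensity, and ratios in log10 units, made with Agilent Feature Extraction 9.5.1.1 per the file headers. Other deposited values are marks of 0 or 1 per spot, such as well above background. The authors also deposited a table of 25030 probes in log10 units with 100 of the members. Over 12921 probes its values, less each probe's mean, had a slope of 1.00 on the software's log10 skin over reference ratio (largest difference 1.96e-04). Scale and direction are thus known and the constant per probe is not; its column medians are 2.42 to 2.48.

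Mean brightness and median background were corrected with normexp (offset 50), normalized by loess within arrays, and turned to log2 skin over reference in limma 3.58.1 under R 4.3.3. Control and outlier spots had no weight, and outliers (1 to 13 per array) were set to missing. Skin levels are log2 Cy3 values after loess and Aquantile normalization, and are open to dye bias. Probes detected on at least 3 arrays with 2 values in each group were tested (27115). lmFit and eBayes fitted 6 group means over all 18 arrays, with 12 residual degrees of freedom. The limits named in the series design were used, a fold over 1.5 (not for the difference between changes) and an adjusted p under 0.05, here by Benjamini-Hochberg over the whole table. P values are two-sided. A permutation of 3 against 3 arrays cannot go below 0.1. The script was tested on simulated data.

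Members, lists and tests were chosen with earlier results of these data known. Gene lists and cell markers could not be applied to unnamed probes. The naming rule took the 2 members with the largest bound, overall and per P14 class; others named were chosen after their values were seen. Deviations of same-numbered arrays of the genotypes from their group means correlated at 0.17 to 0.35 in the 3 pairs of P10 (other P10 pairs -0.22 to 0.0074), so the numbers were taken as pairing the P10 arrays. At P14 and P31 they did so in 1 of 3 pairs each (-0.43 to 0.38 and -0.46 to 0.37). Differently numbered arrays reached 0.60 at P14 and 0.63 at P31, so correlations of the size seen at P10 do not establish a pairing. The labels give the numbers and no shared litter or day. Alternatives were other background corrections, the software's ratio, Cy3 alone, the deposited table, no filter, slide or replicate blocks, fewer arrays, no moderation, no fold limit, each array left out, and other detection rules.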

Additional observations from a re-analysis of the deposited data

How the results depend on the processing

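The number of members depended on the rule: 76 with all 6 P10 arrays required, 237 with 4 of 6, 285 with at most 1 P31 array allowed, and 66 with the positive and significant call, of which 6 were members. Leaving out 1 array gave 149 to 225, the most without wild-type replicate 3 of P10. The rule then still allowed a miss on 1 of the remaining P10 arrays. All 149 members met it by construction, so their inclusion each time shows nothing about stability. Under the positive and significant call 1 member in place of 54 was on 0 P14 arrays. The median bound was 2.09-fold from processed Cy3 signals scaled to the 75th percentile, in place of 1.46-fold.

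The count of 0 members passing between genotypes became 1 with Cy3 alone, at P14 and for the mean of P10 and P14 (Z00071340-1, adjusted p 0.0114 and 0.022). Leaving out 1 array gave 0 to 3 members at P10, 0 to 3 for the mean and 0 to 1 for the difference between changes, and 0 at P14. Knockout replicate 3 of P10 gave the 3 (Z00075665-1, Z00022471-1 and Z00029506-1) and the 1 (Z00022471-1). Knockout replicate 2 of P10 gave 1 at P10 (Z00012450-1), and wild-type replicate 3 of P10 gave 1 for the mean (Z00028309-1). The cause was not tested. Other alternatives left the counts at 0. With the replicate block 0 members passed in each comparison, also with the number as a block within each age, chosen after seeing the data, where the lowest adjusted p at P10 was 0.095. It changed no call of a member. Across the 31 alternatives the median difference at P10 ran from 0.0053, with slide as a fixed block, to 0.32, with Cy3 alone. Setting aside the 3 members that differed between animals, chosen after seeing the data, also left 0. Dim spots limit all these values.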

Other observations

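Some probes outside the 149 varied between arrays like Z00064853-1 or against it. They were found by their correlation with it over the 18 arrays, after its values were seen, and are given as values. On the 7 arrays on which Z00064853-1 was highest, the skin level of Z00064860-1 was 7.48 to 8.71, and it was 5.91 to 6.46 on the other 11. Z00031814-1 had 8.43 to 9.66 and 6.33 to 7.38, and was detected on 2 P31 arrays. Z00017323-1 ran the other way, with 6.57 to 6.99 on those 7 arrays and 8.92 to 10.27 on the other 11, and Z00016441-1 likewise had 6.29 to 7.57 and 9.88 to 11.83. Both were detected on all 6 P31 arrays. On wild-type and knockout replicate 3 of P10, where Z00064853-1 was at 8.51 and 8.48, between its high and low arrays, Z00017323-1 was at 9.49 and 9.27, among its high values.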
